A study of Mus musculus with 92 samples.

Results

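The sites described here are CTCF sites of mouse germline stem cells (GSC) that carried the cohesin subunit STAG2 and neither STAG1 nor STAG3. They were chosen from the deposited peak lists. Intervals called for CTCF in all 4 GSC genotypes with a CTCF list were kept as shared CTCF sites, and a STAG site was a merged interval overlapped by at least 2 lists of that protein in wild-type GSC. Of 36623 shared CTCF sites, 3363 (9.18%) overlapped a STAG2 site and no STAG1 or STAG3 site. They are called STAG2-alone sites below and made up 23.2% of the 14492 shared CTCF sites with STAG2 in GSC. Because the GSC lists chose these sites, the STAG and CTCF calls in GSC are given as a description, and tests were made only on lists from the other cell types.

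The study mapped STAG proteins and CTCF by ChIP-seq, which sequences the DNA that an antibody pulls down with its protein, along a culture route to male germ cells. Peak lists of 30 of its 92 samples were used. For wild-type embryonic stem cells (ESC) and epiblast-like cells (EpiLC), 2 lists each of STAG1 and STAG2 were used. The d2PGCLC and d4c7PGCLC, stages of primordial germ cell-like cells, had 2 STAG1 and 3 STAG2 lists each. Wild-type GSC had 2 STAG1, 3 STAG2 and 3 STAG3 lists. The CTCF lists came from mutant GSC, 1 pooled list per genotype: Stag1Stag2dKO (STAG3-only), Stag1Stag3dKO (STAG2-only), Stag2Stag3dKO (STAG1-only) and Stag3 KO. All GSC were of the line AAG (Acrosin-EGFP; beta-Actin-EGFP) and were sorted for that reporter. The other cells were of the BVSC line (BDF1-2-1, with Blimp1-mVenus and Stella-ECFP reporters), and PGCLC were sorted for Blimp1-mVenus. Line and cell type therefore cannot be told apart for GSC, and CTCF was read here in mutant GSC only. Peak lists hold no expression, so no cell type was checked against its markers.

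Cohesin is a ring-shaped complex that holds sister chromatids together and extrudes loops of chromatin. Each mitotic ring carries a STAG subunit, and STAG1 and STAG2 are the usual versions in somatic cells, while STAG3 is best known from meiosis. CTCF is a zinc-finger DNA-binding protein that halts loop extrusion, so that cohesin is commonly found at CTCF sites, where it marks loop anchors and domain boundaries.

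To show the DNA under such sites, RefSeq promoter windows (GRCm38.p6, 250 bases before to 50 after a gene start) were searched for the core of the CTCF motif, CCNNNAGGNGGC, and its reverse complement GCCNCCTNNNGG. STAG2-alone sites overlapped 80 windows, of which 12 (15%) held the motif, against 21.5% of 2008 windows at all other shared CTCF sites and 3.43% of all 32851 windows. In 10 of the 12, the motif lay within 50 bp of the CTCF summit. Windows of 1 site can overlap each other and hold the same motif. The Apoo windows and the Fam90a1b window on the opposite strand shared a motif, as did those of Car7 and Nae1. The 12 windows are therefore not 12 separate sites. The 4 windows below are shown because each holds the motif at a STAG2-alone site while STAG1 in the other cell types ranged from every list to a few. Capitals mark the motif, and each sequence reads 5′ to 3′ on the strand of its gene. The Adprhl1 window (an ADP-ribosylhydrolase-like protein of heart muscle) is chr8:13254113-13254412, minus strand. The Nat8 window (an N-acetyltransferase of kidney and liver) is chr6:85836808-85837107, minus strand. The Car7 window (a carbonic anhydrase) is chr8:104534450-104534749, plus strand. The Apoo window (a subunit of the mitochondrial MICOS complex) is chrX:94366860-94367159, plus strand.
Adprhl1: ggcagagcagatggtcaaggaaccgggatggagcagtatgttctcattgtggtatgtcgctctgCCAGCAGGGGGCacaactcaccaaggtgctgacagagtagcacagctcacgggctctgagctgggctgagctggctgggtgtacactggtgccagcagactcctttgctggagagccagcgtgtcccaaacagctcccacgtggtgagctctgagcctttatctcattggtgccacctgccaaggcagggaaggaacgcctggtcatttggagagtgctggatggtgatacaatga
Nat8: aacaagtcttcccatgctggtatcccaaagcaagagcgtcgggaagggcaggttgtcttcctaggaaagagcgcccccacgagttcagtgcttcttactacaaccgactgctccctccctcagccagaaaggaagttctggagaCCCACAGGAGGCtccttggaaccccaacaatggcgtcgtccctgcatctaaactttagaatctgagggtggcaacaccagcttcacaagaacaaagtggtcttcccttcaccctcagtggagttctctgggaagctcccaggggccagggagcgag
Car7: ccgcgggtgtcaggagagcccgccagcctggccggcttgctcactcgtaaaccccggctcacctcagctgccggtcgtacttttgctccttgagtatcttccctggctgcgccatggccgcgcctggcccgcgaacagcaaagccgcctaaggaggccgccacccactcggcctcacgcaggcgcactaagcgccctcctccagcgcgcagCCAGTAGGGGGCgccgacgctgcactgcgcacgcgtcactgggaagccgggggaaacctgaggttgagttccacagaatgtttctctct
Apoo: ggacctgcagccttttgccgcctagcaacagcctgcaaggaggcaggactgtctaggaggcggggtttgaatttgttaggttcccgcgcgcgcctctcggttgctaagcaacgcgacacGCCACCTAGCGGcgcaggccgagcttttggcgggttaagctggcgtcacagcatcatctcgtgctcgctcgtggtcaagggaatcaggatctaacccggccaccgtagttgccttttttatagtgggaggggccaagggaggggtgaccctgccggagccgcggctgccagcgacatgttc

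The motif lay 8 bp from the CTCF summit at Adprhl1, 59.5 bp at Nat8, 6 bp at Car7 and 14.5 bp at Apoo. At Adprhl1 no GSC STAG1 or STAG3 peak was called, and GSC STAG2 had a fold enrichment over background, the authors' value for a peak, of 11.9 and 12.2 in replicates 1 and 3, with none called in replicate 2. Every STAG1 list of the other cell types had a peak there, with fold enrichments of 40.3 and 20.4 in ESC, 7.78 and 9.18 in EpiLC, 11.3 and 14.9 in d2PGCLC, and 23.1 and 16.9 in d4c7PGCLC. The STAG2-alone state of this promoter was thus seen in GSC and in none of the other 4 cell types. At Nat8, where 1 GSC STAG1 list and 1 GSC STAG3 list also had a peak, STAG1 was called in 7 of the 8 lists of the other cell types, EpiLC replicate 1 being without. At Car7, where 1 GSC STAG3 list also had a peak, STAG1 was called in both lists of ESC, d2PGCLC and d4c7PGCLC and in neither EpiLC list. At Apoo, where again 1 GSC STAG3 list had a peak, STAG1 was called only in replicate 2 of d2PGCLC and of d4c7PGCLC, with fold enrichments of 5.70 and 4.67, while all 10 STAG2 lists of these cell types had a peak.

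Within GSC, STAG2-alone sites were weakly to moderately enriched for STAG2. A STAG2 peak was called in all 3 GSC lists at 1606 of them and in 2 lists at 1742. At 15 only 1 list had a peak on the CTCF site itself, the merged STAG2 interval reaching it from the side. Fold enrichment was read only at sites with a peak in the list, which were 3208, 2062 and 3047 STAG2-alone sites in replicates 1, 2 and 3. The median STAG2 fold enrichment of STAG2-alone sites was 8.05, 7.57 and 7.17 in these replicates. The corresponding medians at sites with STAG1, STAG2 and STAG3 were 18.6, 13.8 and 18.5, and at sites with STAG2 and STAG3 but no STAG1 they were 7.86, 7.23 and 7.80. Where a peak was called, STAG2-alone sites thus resembled the sites with STAG2 and STAG3 in STAG2 strength. They lay below the sites with all 3 proteins in each replicate.

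The absence of STAG1 and STAG3 was often a matter of the threshold. List length differed as well. GSC lists held 9641 to 10778 STAG1 peaks, 13698 to 25979 STAG2 peaks and 12832 to 39681 STAG3 peaks. Both GSC STAG1 lists were shorter than every STAG1 list of the other cell types, which held 14720 to 42013 peaks. How far list length accounts for STAG1 calls missing in GSC and present elsewhere was not tested. Of the STAG2-alone sites, 919 (27.3%) had a STAG1 peak in 1 of the 2 GSC STAG1 lists. A STAG3 peak was called in 1 GSC list at 1254 sites (37.3%) and in 2 lists that did not form a site there at 5. No STAG1 or STAG3 peak was called in any GSC list at 1666 sites (49.5%). Just outside the STAG2 threshold, 2606 shared CTCF sites without any STAG site had a STAG2 peak in 1 GSC list. Where a peak was called, the median STAG2 fold enrichment in replicates 1, 2 and 3 was 9.62, 7.69 and 8.42 at STAG2-alone sites called in 3 lists. It was 7.04, 6.74 and 6.29 at those called in 2, against 6.21, 6.33 and 5.61 at these outside sites. The number of STAG2-alone sites was 1756 without GSC STAG2 replicate 1, 1916 without replicate 3, 5053 without GSC STAG3 replicate 2 and 5075 without STAG3 replicate 3.

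The first question was whether the same places carried STAG2, STAG1 or both in the other cell types. Most carried both. A STAG2 site, called in at least 2 lists of the cell type, was present at 3154 STAG2-alone sites (93.8%) in ESC, beside 80.3% of all shared CTCF sites. The counts were 3276 (97.4%) in EpiLC, 3036 (90.3%) in d2PGCLC and 2973 (88.4%) in d4c7PGCLC, beside 85.9%, 72.1% and 66.7% of all shared sites in that order. A STAG1 site was present at 2807 STAG2-alone sites (83.5%) in ESC, beside 62.6% of all shared sites. The counts for STAG1 were 1779 (52.9%) in EpiLC, 2261 (67.2%) in d2PGCLC and 3114 (92.6%) in d4c7PGCLC, beside 34.5%, 45.9% and 73.4%. STAG1 was thus least often called in EpiLC and most often in d4c7PGCLC, at STAG2-alone sites and at all shared sites.

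Very few places lacked STAG1 throughout. A STAG1 site was found in at least 1 of the other 4 cell types at 3144 STAG2-alone sites (93.5%), beside 76.4% of all shared CTCF sites. It was found in all 4 at 1642 (48.8%), beside 30.2%, and a STAG2 site in all 4 at 2889 (85.9%), beside 63.3%. The state that defined these places in GSC also required no STAG3 site, and no STAG3 list of the other cell types was used. STAG2 without a STAG1 site, whatever STAG3 may do, was met at 353 of them (10.5%) in ESC, beside 18.3% of all shared sites. It was met at 1497 (44.5%) in EpiLC, 775 (23.04%) in d2PGCLC and 53 (1.58%) in d4c7PGCLC, beside 51.4%, 26.3% and 3.49%. In each of the 4 cell types the share was lower than among all shared sites. STAG2 without STAG1 in all 4 other cell types was met at 26 sites (0.773%), beside 1.7% of all shared sites.

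**Figure D1:**
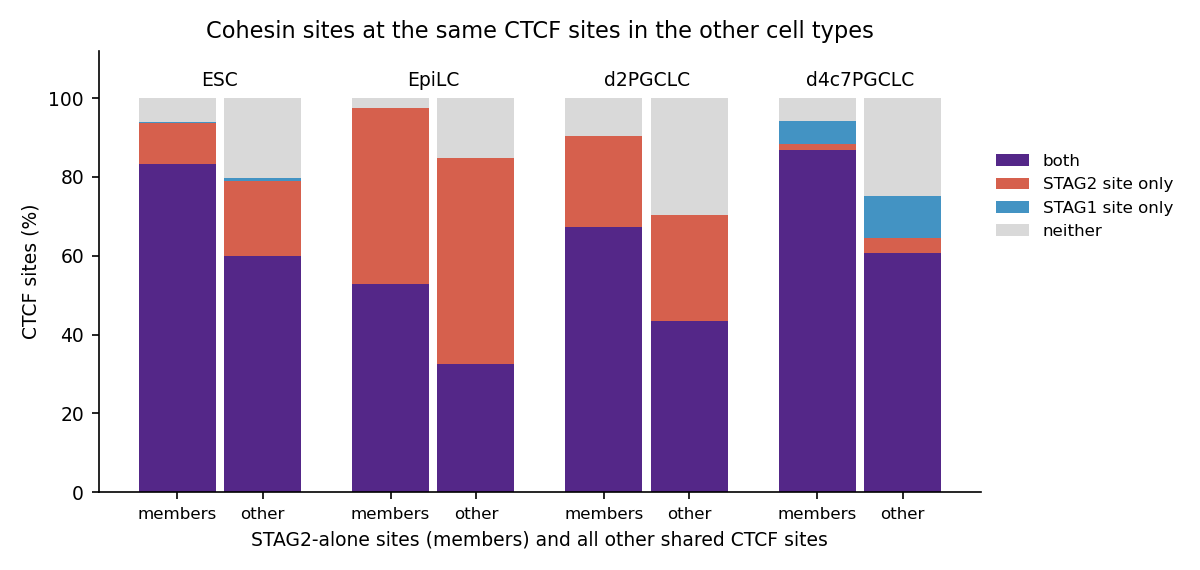
Share of CTCF sites (%, vertical axis) with sites of both STAG1 and STAG2, of STAG2 only, of STAG1 only or of neither in each of 4 cell types, for STAG2-alone sites of GSC (left bar of each pair, 3363 sites) and all other shared CTCF sites (right bar, 33260 sites). The segment with STAG2 only is largest in EpiLC, at 44.5% of STAG2-alone sites and 52.1% of the others.

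The share of STAG2-alone sites with a STAG2 peak was 95.1% and 94.6% in the ESC lists and 98.2% and 97.9% in the EpiLC lists. It was 92.2%, 84.3% and 91.2% in the d2PGCLC lists, and 93.6%, 85.2% and 86.6% in the d4c7PGCLC lists. The share with a STAG1 peak was 91.0% and 84.0% in ESC, 54.5% and 75.1% in EpiLC, 68.8% and 74.8% in d2PGCLC, and 93.4% and 95.4% in d4c7PGCLC. STAG2 lists lay above STAG1 lists in ESC, EpiLC and d2PGCLC without overlap, while in d4c7PGCLC both STAG1 lists lay above 2 of the 3 STAG2 lists, and replicate 1 of STAG2 lay between them.

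Averaged over the 4 cell types, the STAG2 share of STAG2-alone sites exceeded the STAG1 share by 13.1 percentage points (exact permutation test of the protein labels within cell types, two-sided, p = 0.0167, 18 lists). ESC gave 7.37 points, EpiLC 33.3 points, d2PGCLC 17.5 points and d4c7PGCLC -5.92 points. Over all other shared CTCF sites the mean was 16.2 points, with 13.4, 43.03, 19.3 and -11.03 points in the same order, so the higher STAG2 share was not particular to STAG2-alone sites. With the 4 cell types as the units the exact test gave p = 0.25, where 0.125 is the smallest it allows. Without the EpiLC lists the difference was 6.31 points (exact p = 0.1) and without the d2PGCLC lists 11.6 points (exact p = 0.144). None of 6 pairwise tests of the difference between cell types passed after Benjamini-Hochberg adjustment (lowest exact adjusted p = 0.1). The number of peaks moved with the protein: STAG2 lists of these cell types held 35799 to 84904 peaks and STAG1 lists 14720 to 42013. With the lists of these cell types limited to the 9641 peaks of highest fold enrichment each, a setting chosen after seeing the data, STAG2 exceeded STAG1 by 5.40 points (exact p = 0.000278, the smallest that 3600 arrangements allow).

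**Figure D2:**
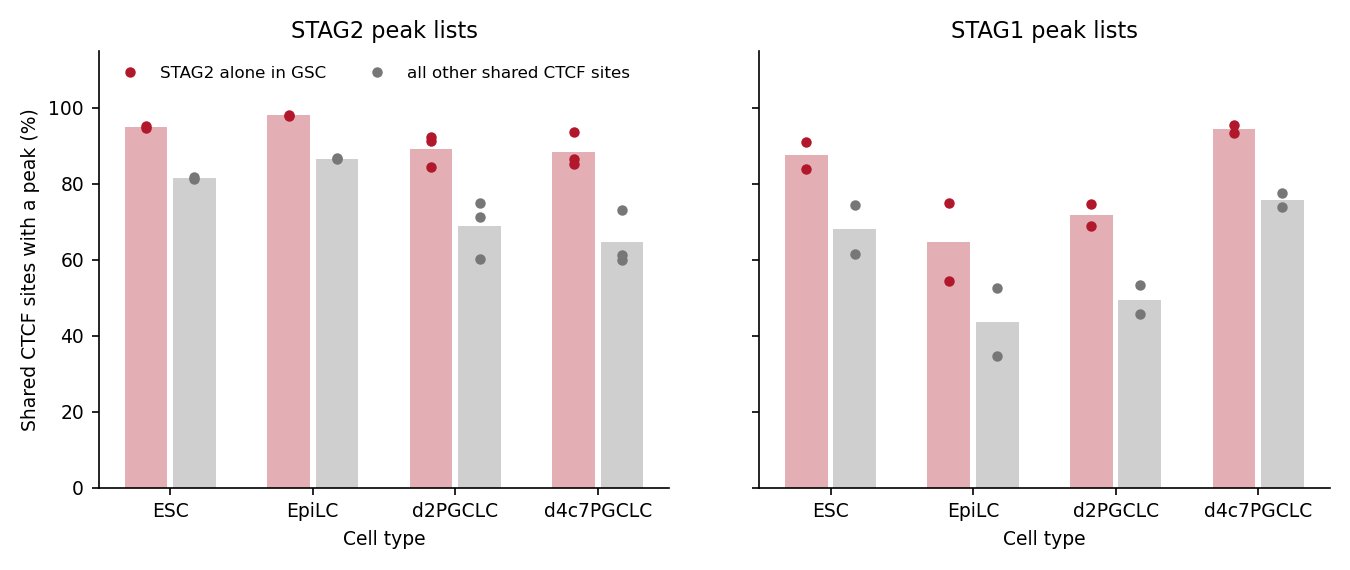
Share of CTCF sites (%, vertical axis) with a STAG2 peak (left panel) or a STAG1 peak (right panel) in ESC, EpiLC, d2PGCLC and d4c7PGCLC; points are peak lists and bars their mean, for STAG2-alone sites (left of each pair) and all other shared CTCF sites (right). STAG2-alone sites lie above the others in all 18 lists, and the 2 STAG1 lists of EpiLC lie farthest apart, at 54.5% and 75.1%.

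The second question was whether places with STAG2 alone in GSC were bound by cohesin elsewhere more often than other CTCF sites, and for which STAG protein. They were, for both. In STAG2 lists 91.9% of STAG2-alone sites had a peak on average, against 73.7% of all other shared CTCF sites, a difference of 18.2 points that was positive in 10 of 10 lists (exact sign-flip test, two-sided, p = 0.00195). In STAG1 lists the shares were 79.6% of STAG2-alone sites and 59.2% of the others, a difference of 20.4 points that was positive in 8 of 8 lists (exact p = 0.00781). These are the smallest p-values that 10 and 8 lists allow, and lists of 1 cell type share that cell type. Of the 33260 other sites, 19486 had no GSC STAG site, while STAG2-alone sites were chosen for a STAG2 site in GSC. The comparison was thus largely one of sites with and without a cohesin call in GSC. It does not set STAG2-alone sites apart from other classes with such a call.

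The STAG2 difference was 13.4 ± 0.00870 points in ESC and 11.4 ± 0.129 in EpiLC (SD, n = 2 lists each), and 20.5 ± 3.31 in d2PGCLC and 23.7 ± 2.83 in d4c7PGCLC (SD, n = 3 lists each). The STAG1 difference was 19.5 ± 4.05, 21.2 ± 1.86, 22.3 ± 1.30 and 18.6 ± 1.22 points in the same order (SD, n = 2 lists each). The STAG1 difference thus kept to 18.6 to 22.3 points, while the STAG2 difference was lower where STAG2 peaks covered most CTCF sites. Set against each other, the excess in STAG2 lists minus that in STAG1 lists was -3.13 points and did not pass (exact permutation test, p = 0.129). The sign turned with list length: with the other cell types' lists limited to equal length it was 6.71 points (exact p = 0.000278).

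Set against single classes, STAG2-alone sites lay between sites with fewer peaks and sites with more. Compared with 2728 sites that carried STAG2 and STAG3 without STAG1 in GSC, the difference was 4.78 points in STAG2 lists (exact adjusted p = 0.00391, higher in 10 of 10 lists) and 10.3 points in STAG1 lists (exact adjusted p = 0.00781, higher in 8 of 8). The STAG2 difference was 0.735 points without GSC STAG3 replicate 2 (exact adjusted p = 0.156) and 0.0214 points without STAG3 replicate 3 (exact adjusted p = 0.963), when more sites counted as STAG2-alone. The STAG1 difference was then 5.03 points (exact adjusted p = 0.0187) and 4.54 points (exact adjusted p = 0.0469). Compared with 2483 sites with STAG3 alone, the differences were 31.9 points in STAG2 lists and 37.7 in STAG1 lists. Compared with 19486 sites without a GSC STAG site they were 28.0 and 32.8 points. All 4 of these passed with the same exact adjusted p-values for each protein. The 977 sites with STAG1 and STAG2 but no STAG3 had peaks more often than STAG2-alone sites in all 18 lists, a difference that was not tested. In STAG1 lists of EpiLC, where it was widest, STAG2-alone sites had 54.5% and 75.1%, against 72.4% and 91.3% of those sites. STAG2-alone sites also stood below the 7424 sites with all 3 proteins, which had STAG1 site calls in all 4 other cell types at 67.6%, against 48.8% of STAG2-alone sites. For sites with STAG2 and STAG3 that share was 27.7%.

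Where a peak was called, its rank in the list was also compared. The median percentile of fold enrichment within the list was 76.0 to 87.4 for STAG2-alone sites in the 10 STAG2 lists of the other cell types, and 53.7 to 74.1 in the 8 STAG1 lists. For sites with STAG2 and STAG3 the medians were 56.6 to 74.7 in STAG2 lists and 39.0 to 59.1 in STAG1 lists. STAG2-alone sites ranked above sites with STAG2 and STAG3, and below sites with all 3 proteins, in each of the 18 lists.

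CTCF strength was compared as the percentile of fold enrichment among the 36623 shared sites. STAG2-alone sites were above the middle, with a median of 57.1 in STAG3-only, 61.1 in STAG2-only, 62.2 in STAG1-only and 63.1 in STAG3 knockout cells. All other shared sites had medians of 48.9, 48.2, 48.1 and 48.1 in the same order. With the percentile averaged over genotypes, the median of all STAG2-alone sites stood 12.9 points above that of the other shared sites, and the median of the 1666 with no STAG1 or STAG3 peak in any GSC list stood 5.40 points above. By class that median was 61.0 for STAG2-alone sites, 69.6 with STAG2 and STAG3, 71.1 with STAG1 and STAG2, and 84.4 with all 3. Sites without a GSC STAG site had 32.4. STAG2-alone sites thus had the weakest CTCF of the classes with STAG2. Since STAG2-alone sites differed from the others in CTCF strength, the shares were also read within 3 equal tiers of the CTCF percentile over all shared sites. In the lower tier, STAG1 lists had a peak at 79.6% of 521 STAG2-alone sites, against 45.1% of the others. In the middle tier they had one at 83.7% of 1519, against 59.4%, and both differences passed (exact sign-flip test, p = 0.00781). In the upper tier the shares were 74.9% of 1323 sites and 74.3%, a difference of 0.634 points that did not pass (exact sign-flip test, p = 0.477). The STAG2 shares were 91.7% against 64.0% in the lower tier, 94.4% against 73.5% in the middle and 89.1% against 84.3% in the upper, a difference that passed in each (exact p = 0.00195). The STAG1 difference from other CTCF sites was thus seen at weak and middling CTCF sites and was not found at the strongest, of which sites with all 3 proteins in GSC were a large part (5634 of 10885 others). In the lower tier most of the others had no GSC STAG site (9982 of 11687), against 2199 of 10885 in the upper. The tiers therefore differ in the make-up of the others as well as in CTCF strength.

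**Figure D3:**
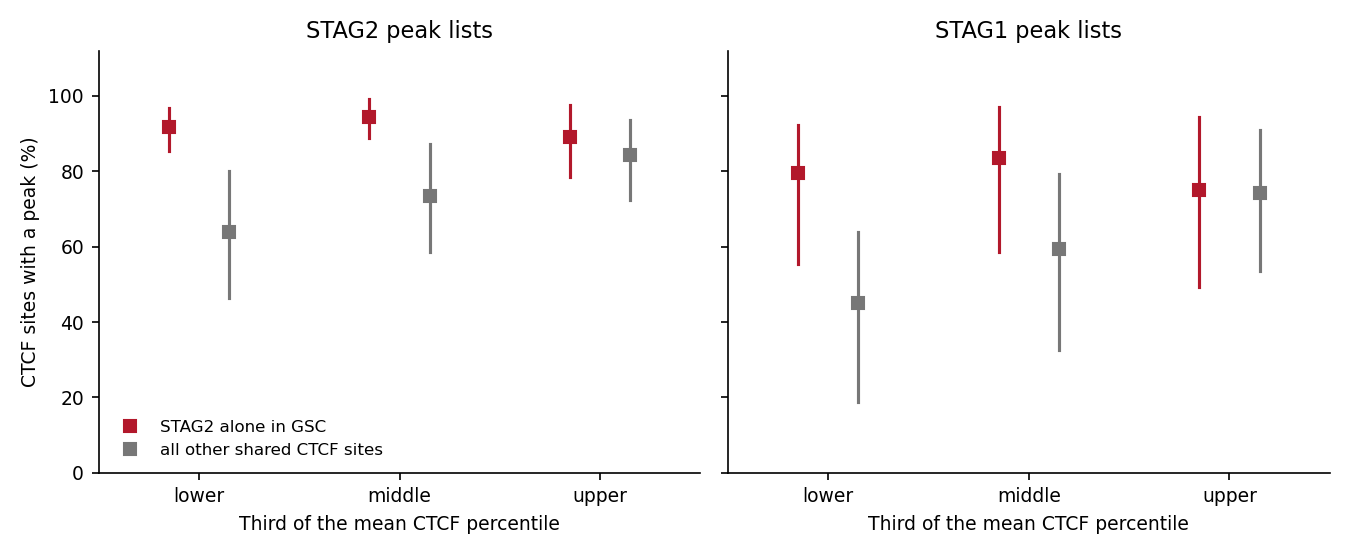
Share of CTCF sites (%, vertical axis) with a STAG2 peak (left, 10 lists) or a STAG1 peak (right, 8 lists) by tier of the mean CTCF percentile (horizontal axis); squares are means over lists and lines run from the lowest to the highest list, for STAG2-alone sites (left of each pair) and all other shared CTCF sites. The other sites climb with CTCF strength, to 74.3% in STAG1 lists, while STAG2-alone sites stay between 74.9% and 83.7%.

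CTCF at STAG2-alone sites ranked lowest in the cells whose only STAG protein is STAG3. Of the 4 genotypes, STAG3-only gave the lowest percentile at 1365 STAG2-alone sites (40.6%), against 26.7% of all other shared sites. The median difference of STAG3-only from the mean of the other 3 genotypes was -1.06 points at STAG2-alone sites, against 1.10 points at the others. It was negative at 55.6% of STAG2-alone sites, against 41.6%. The 977 sites with STAG1 and STAG2 but no STAG3 had a median of -2.78 points, while the 3 largest classes with STAG3 had medians of 0.314 or more. The shift was seen in the lower tier of CTCF strength (-1.11 points) and in the middle tier (-2.57 points), but was 0.207 points in the upper. Each genotype had 1 list, so these differences have no replicate check and cannot be told apart from differences between libraries.

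**Figure D4:**
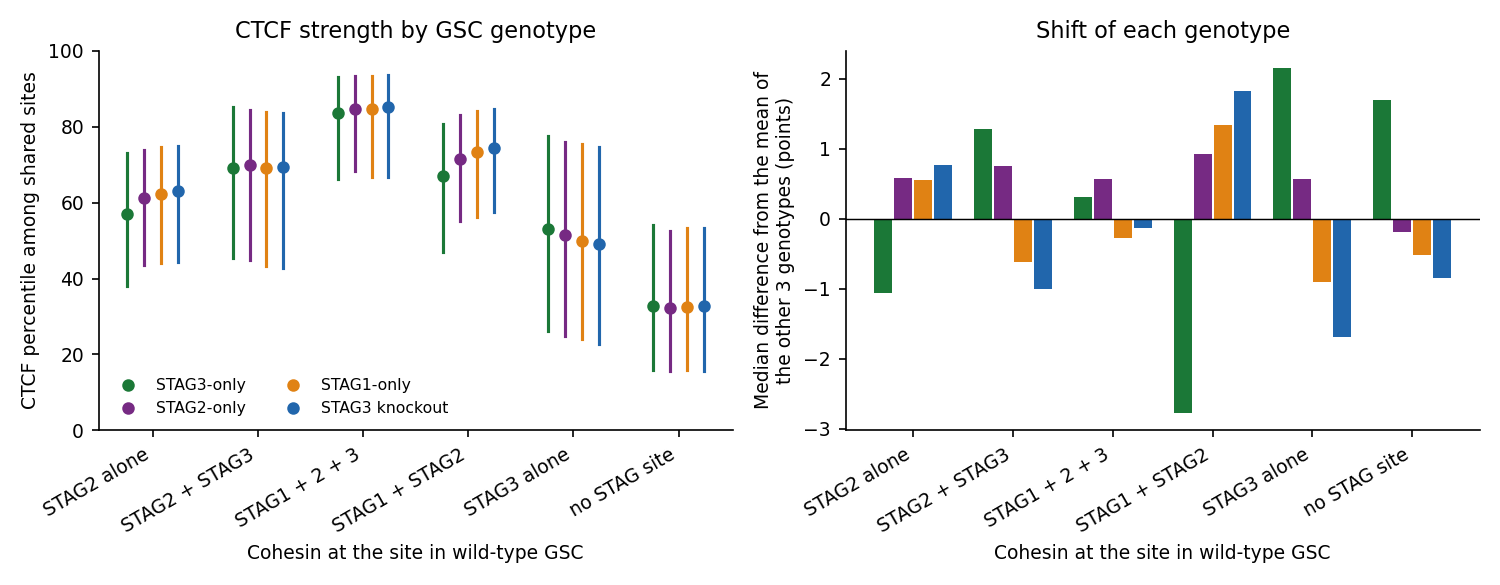
Left: CTCF percentile among shared sites (vertical axis) in each of 4 GSC genotypes (colours) by the cohesin found at the site in wild-type GSC; points are medians and lines the quartiles over sites. Right: median over sites of the difference between a genotype and the mean of the other 3, in percentile points; STAG3-only is below 0 for STAG2-alone sites (-1.06) and for STAG1 + STAG2 sites (-2.78) and above 0 for the other classes shown.

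STAG2-alone sites lay near gene ends less often than sites with STAG3. Within 2500 bp of an end of a RefSeq protein-coding gene lay 527 of them (15.7%, Wilson 95% interval 14.5 to 16.9), beside 19.2% of all shared sites. The share was 19.5% for all other shared sites, 36.7% for sites with STAG2 and STAG3, and 44.0% for those with STAG3 alone. It was 19.3% for sites with all 3 proteins, 14.5% for sites without STAG and 11.8% for those with STAG1 and STAG2. Gene starts, for which chromosome 18 was not analysed here, gave the same order: 194 of 3229 STAG2-alone sites (6.01%) lay within 1000 bp of one, beside 9.18% of all shared sites and against 24.8% of sites with STAG2 and STAG3. The intervals here cover counting error only, and neighbouring sites are not independent. Without GSC STAG3 replicate 2 or 3 the gene-end share of STAG2-alone sites was 20.4%.

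Chromosome X held 104 STAG2-alone sites (3.09%, Wilson 95% interval 2.56 to 3.73), beside 2.63% of all shared sites. It held 0.770% of sites with STAG2 and STAG3 and 0.862% of those with all 3 proteins, but 4.71% of sites with STAG1 and STAG2 and 3.62% of sites without a GSC STAG site. Read the other way, 44.3% of the 235 STAG2-bearing CTCF sites on X were STAG2-alone, against 22.9% of the 14257 on autosomes. STAG3 accompanied STAG2 at 36.2% of them on X and 70.6% on autosomes, and STAG1 at 46.8% and 58.2%. Of all 965 shared CTCF sites on X, however, 10.8% were STAG2-alone, within the range of single autosomes (8.13% to 12.997%). In the other cell types the X-linked STAG2-alone sites had a STAG1 peak less often than the autosomal ones in EpiLC (22.1% and 58.7%, against 55.5% and 75.6%) and in d2PGCLC (54.8% and 71.2%, against 69.3% and 74.9%). In ESC the shares were 88.5% and 72.1% on X, against 91.0% and 84.4% on autosomes, and in d4c7PGCLC 92.3% and 95.2%, against 93.5% and 95.4%. All shared CTCF sites were also called less often on X in STAG1 lists, at 11.3% and 32.7% in EpiLC against 37.2% and 55.3% on autosomes.

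**Figure D5:**
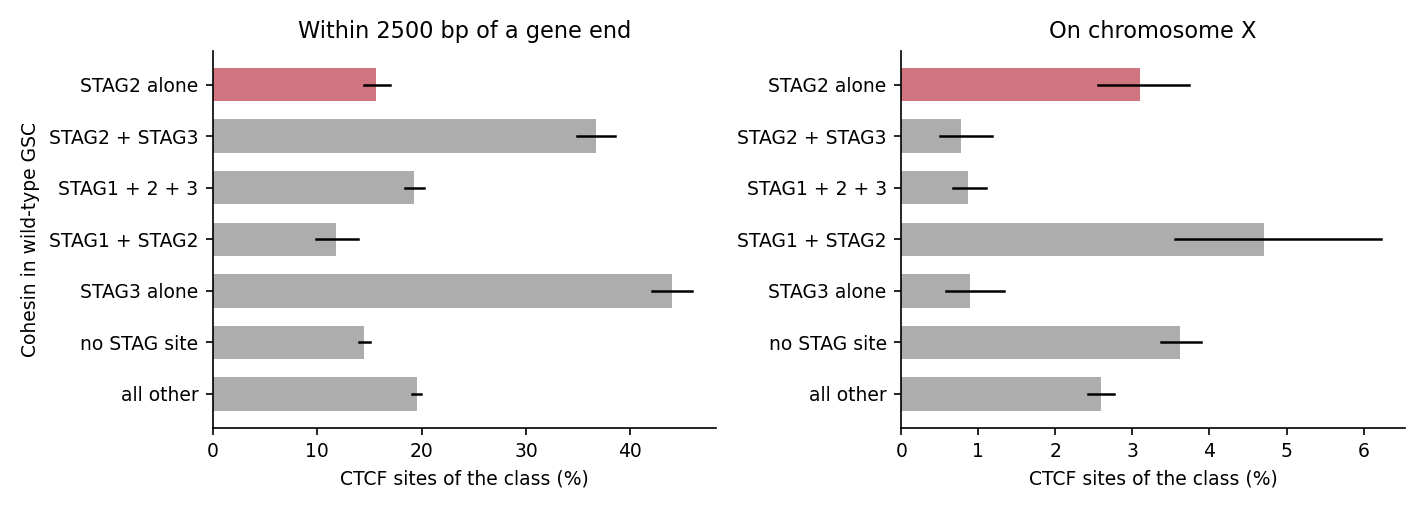
Share of CTCF sites (%, horizontal axis) within 2500 bp of an end of a protein-coding gene (left) and on chromosome X (right), by the cohesin at the site in wild-type GSC; bars are shares and lines Wilson 95% intervals, with STAG2-alone sites on top. STAG2-alone sites are at 15.7% for gene ends, below the 36.7% of STAG2 + STAG3 sites, and at 3.09% for X, above the 0.770% of those sites.

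STAG2-alone sites were 8.13% to 12.997% of the shared CTCF sites of an autosome, lowest on chromosome 16 and highest on 18. The median width of STAG2-alone sites was 485 bp, against 452 bp for all other shared sites, and the median distance to the nearest shared CTCF site was 13817 bp against 12442.5 bp. The STAG2 summit lay a median of 60, 61 and 61.5 bp from the CTCF summit in the 3 GSC lists, against 62, 62 and 63 bp at the others.

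The gene lists fixed for this work cover cohesin and CTCF, pluripotency, germ cell and meiotic programmes, imprinted genes, Hox and protocadherin clusters, neural and mesendoderm regulators, and feeder and Sertoli cells. Over all 21887 protein-coding genes, 614 (2.81%) had a STAG2-alone site within 2500 bp of an end. No gene did among 21 pluripotency, 14 formative, 12 early germ cell, 24 spermatogonial, 22 meiotic, 16 imprinted, 12 neural, 10 mesendoderm and 10 Sertoli genes. Of 21 genes of cohesin and CTCF only Pds5a did, which encodes a cohesin-associated protein of loading and release, and of 12 feeder genes only Pdgfrb, a growth factor receptor.

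Clustered protocadherins, neuronal adhesion proteins whose promoter choice depends on CTCF and cohesin, were the list with the most genes at STAG2-alone sites. Of 57 such genes, 51 had a shared CTCF site of any kind at an end, beside 6913 of all 21887 protein-coding genes, and 15 had a STAG2-alone site, at 14 distinct sites on chromosome 18. The genes were Pcdha3, Pcdha6 and Pcdha10 of the alpha cluster, Pcdhb3, Pcdhb4, Pcdhb10, Pcdhb11, Pcdhb12, Pcdhb15, Pcdhb21 and Pcdhb22 of the beta cluster, and Pcdhga3, Pcdhgb2, Pcdhgb4 and Pcdhgb5 of the gamma cluster. Neighbouring genes of a cluster are similar in sequence, so reads may be shared among them, and the sites are not independent. All 14 sites had a STAG2 peak in both ESC and both EpiLC lists. STAG1 was called at 14 and 12 of them in ESC, at 0 and 5 in EpiLC, at 6 and 5 in d2PGCLC, and at 14 and 14 in d4c7PGCLC. At all STAG2-alone sites the STAG1 shares in EpiLC and d2PGCLC were 54.5% to 75.1%, so the protocadherin sites were called less often there, a difference that was not tested. In GSC, STAG1 was called at 2 and 5 of the 14. The fold enrichment of GSC STAG2 was highest at Pcdhb4 (23.6, 12.5 and 24.02) and Pcdhb3 (18.3, 14.9 and 23.1).

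Of 39 Hox genes, 21 had a shared CTCF site at an end and 4 a STAG2-alone site, at 3 places. At the ends of Hoxd12 and Hoxd13, which encode posterior homeodomain factors, the site chr2:74672953-74673405 had STAG2 fold enrichments of 16.1, 11.8 and 10.6 in GSC. Outside GSC, all 8 STAG1 lists and all 10 STAG2 lists had a peak there. Its CTCF percentile was 26.6 in STAG3-only cells, against 61.2, 67.8 and 68.3 in STAG2-only, STAG1-only and STAG3 knockout cells, with 1 list each. The sites at Hoxa13 (chr6:52256913-52257329) and Hoxb6 (chr11:96294500-96295086) were weaker in GSC, with STAG2 fold enrichments of 6.46 and 4.81 at Hoxa13 and 6.21 and 6.55 at Hoxb6 in replicates 1 and 3 and none called in replicate 2. STAG1 was called in 8 and 7 of the 8 other lists.

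Strong STAG2-alone sites in GSC, by mean percentile of fold enrichment, were named by the nearest protein-coding gene and included those at Sp1, BC035044, Abt1, Morf4l1, Fmnl3, Apex2 and Dagla. Sp1, BC035044, Abt1, Morf4l1 and Fmnl3 reached percentiles of 96.2 to 99.2, and none of these 5 had a STAG1 or STAG3 peak in any GSC list. Near Sp1, the gene of a general transcription factor, the site chr15:102391174-102391503 lay 14813 bp from the gene. Its STAG2 fold enrichment was 95.4, 76.9 and 88.3 in GSC, 113 and 120 in ESC, 204 and 304 in EpiLC, 31.5, 24.002 and 29.3 in d2PGCLC, and 237, 102.9 and 96.1 in d4c7PGCLC. No STAG1 list of any cell type had a peak there. CTCF fold enrichments of 25.1 to 32.1 put it at percentiles of 62.4 to 77.3 among shared sites. Near Abt1 (an activator of basal transcription) the site chr13:23432486-23432901 had 126, 51.1 and 63.9 in GSC, and STAG1 was called in all 8 other lists at 5.57 to 19.6. The mean percentile covers only the GSC lists with a STAG2 peak on the CTCF site. Fmnl3 and BC035044 had such a peak in only 1 GSC list each, so their percentiles rest on that list alone. High fold enrichment in GSC thus went with STAG1 in no list of the other cell types at Sp1 and with STAG1 in every list at Abt1.

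STAG2 in all 13 STAG2 lists with no STAG1 peak in any of 10 lists was met at 2 STAG2-alone sites (0.0595%), near Sp1 and near Zfp386. It was also met at 4 of the 2728 sites with STAG2 and STAG3 but no STAG1 (0.147%), and at no other shared site. The pattern draws on the GSC lists that defined the classes, so sites without STAG2 or with STAG1 in GSC could hardly meet it. The site near Zfp386 (chr12:115759039-115759603, 288111 bp from that gene) was weak in GSC, with STAG2 fold enrichments of 5.18, 7.08 and 7.47, against 13.8 and 38.2 in ESC.

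At the other end, 1642 STAG2-alone sites (48.8%) had a STAG1 peak in each of the 8 lists from outside GSC. So did 28.4% of all other shared sites. By class the share was 27.8% with STAG2 and STAG3, 66.8% with STAG1 and STAG2, and 67.6% with all 3. Of the 1642 STAG2-alone sites, the 5 with the highest CTCF percentile lay near Arhgap12, Gm5936, Sertad2, Zfp184 and Net1, at mean CTCF percentiles of 95.8 to 98.6. The site in Net1 (chr13:3896934-3897373) had STAG2 fold enrichments of 28.4, 14.4 and 25.9 and a STAG1 peak of 8.34 in 1 of 2 lists in GSC. STAG1 there was 22.96 and 15.4 in ESC, 6.18 and 6.37 in EpiLC, 11.01 and 20.1 in d2PGCLC, and 35.5 and 40.1 in d4c7PGCLC.

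Only 24 STAG2-alone sites (0.714%) had no peak in any list of the other cell types, against 8.68% of all other shared sites. The share was low in every class with STAG2: 1.14% with STAG2 and STAG3, 0.307% with STAG1 and STAG2, and 0.0808% with all 3. It was 12.1% without a GSC STAG site and 19.7% with STAG3 alone. Of the 24 STAG2-alone sites, the 5 with the highest STAG2 percentile were in Galnt17, Osbpl10, Rxfp2 and Eps8 and near Smad3. The site near Smad3 had a STAG2 peak on the CTCF site in GSC replicate 1 only (7.67). In Galnt17, a gene of the mucin-type glycosyltransferase family, the site chr5:130891456-130891794 had STAG2 fold enrichments of 9.52, 6.78 and 13.7 in GSC and a weak STAG3 peak of 3.52 in 1 list. Its CTCF fold enrichment was 3.31 in STAG3-only, 7.46 in STAG2-only, 7.09 in STAG1-only and 7.58 in STAG3 knockout cells, at a mean percentile of 9.46 among shared sites. In Eps8, an actin regulator (chr6:137594821-137595271), CTCF was strong in all 4 genotypes, at 31.7 to 34.5, and STAG2 was 8.69, 6.33 and 10.3. CTCF in the other cell types was not analysed here.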

How the data were processed

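Peak lists of 26 STAG libraries and 4 pooled CTCF samples were used. The submitters' processing notes name MACS2, Bowtie2 2.3.4.1 and the builds mm10 and GRCm38.p3. They also name Trim Galore 0.4.1 and bedtools 2.29.2. The sources used here do not give the options or control libraries of the peak calls. In each deposited list the authors give a fold enrichment per peak, a linear ratio over background. The deposited lists also hold −log10 of a p-value and of a q-value, and a score. The CTCF lists are of pooled samples and the STAG lists of single libraries, per the labels. All peaks had −log10 q of at least 2. Fold enrichment was used only to describe and rank peaks within a list. Depth is unknown, and a place without a peak is one where none was called, not one without protein.

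Peaks overlapped when they shared at least 1 bp. Shares of sites with a peak were compared by exact permutation tests in Python 3.11.15 with NumPy 2.4.6 and SciPy 1.17.1. Protein labels were permuted within cell types (3600 arrangements), or signs flipped over lists, and 6 class comparisons were adjusted by Benjamini-Hochberg. The threshold was 0.05. The interval code and the tests were checked on simulated data. No 2 lists of a group held identical intervals. Whether replicates are separate cultures is not stated in the labels. The p-values therefore reflect just the spread among these lists, which may be technical. Named places were the 8 STAG2-alone sites highest by STAG2 percentile in GSC (1 is not reported here), up to 5 each for STAG2 without any STAG1, for STAG1 in all other lists and for no peak elsewhere, and those at ends of genes of the lists. Promoters shown were picked after their values were seen. Genes, gene starts and sequences came from RefSeq GRCm38.p6. The sites and gene lists were chosen with earlier results of these data known.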

Additional observations from a re-analysis of the deposited data

How the results depend on the processing

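Of 531 values under an alternative, 493 were labelled unchanged. A tested value was so labelled when it kept its direction and its call, whatever its size. A value without a test was so labelled when it stayed near the main value. Sizes could move. The STAG2-list difference from STAG2 and STAG3 sites was 4.78 points in the main setting and ran from 0.0214 to 34.1 points. The calls for STAG2-alone sites against all other shared CTCF sites held in all 42 alternatives with a test for each protein over all sites, and the 4 cell types taken alone gave values without a test. Within tiers of CTCF strength, the call was lost for STAG1 lists in the upper tier (0.634 points, p = 0.477 by exact sign flips). The excess in STAG2 lists minus that in STAG1 lists reversed to 10.6 points with all STAG lists limited to 9641 peaks, and to 6.71 points with this done in the other cell types only. The first of these left 1499 STAG2-alone sites, with 20.01% at gene ends, 2.00% on X and a CTCF difference of 17.4 points. STAG summits inside the CTCF site gave 18.5% at gene ends. Requiring no peak in any GSC STAG1 or STAG3 list left 1666 sites and a CTCF difference of 5.40 points, and requiring STAG2 in all 3 GSC lists left 1606.

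In EpiLC alone STAG2 exceeded STAG1 by 33.3 points, the STAG2-list difference from other sites was 11.4 points and the excess -9.76 points. In d2PGCLC alone the STAG1-list difference was 22.3 points. In d4c7PGCLC alone it was 18.6 points, while STAG2 minus STAG1 reversed to -5.92 points and the excess to 5.11 points. Leaving out a cell type and the equal lengths in other cell types only were chosen after seeing the data. STAG2 minus STAG1 was 6.31 points without EpiLC (exact p = 0.1) and 11.6 points without d2PGCLC (exact p = 0.144), and the excess was -5.88 points without d4c7PGCLC (exact p = 0.0139). The share at gene ends was 8.12% within 1000 bp and 10.99% for gene starts only. The CTCF difference was 8.22 points in the STAG3-only list and 7.43 points by score. The causes were not tested.

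Leaving out each list in turn gave 1756 to 5075 STAG2-alone sites, 15.6% to 20.4% at gene ends, 2.31% to 3.29% on X, CTCF differences of 10.4 to 16.2 points, and differences from STAG2 and STAG3 sites of 0.0214 to 5.68 points in STAG2 lists. The fewest STAG2-alone sites came without GSC STAG2 replicate 1. Leaving out GSC STAG3 replicate 3 gave the most sites and the smallest difference from STAG2 and STAG3 sites in STAG2 lists.

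With the replicate number as a block, STAG2 exceeded STAG1 by 13.04 points (exact p = 0.0547) and the excess was -3.28 points (exact p = 0.195). Deviations of same-numbered lists correlated at -0.0246 to 0.0220 over 8 pairs, so the numbers were not taken as pairing the samples.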
